A study of Homo sapiens with 30 samples.

Results

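The DNA replication genes are 41 genes that were named for the work of copying the genome: loading and activating the replicative helicase, synthesising DNA, supplying deoxynucleotides, wrapping new DNA into chromatin, and committing the cell to S phase. Every probe set whose platform gene symbol is exactly 1 of these 41 was taken. That gave 62 of the 22215 probe sets tested, and 16 of the 41 genes had more than 1. Each gene was represented by its probe set with the highest mean over all arrays, and the other probe sets are given where they differ. A further 2 probe sets whose annotation joins a member to another gene were left out.

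The cells were a co-culture of Caco-2, a human colorectal adenocarcinoma line that forms an absorptive-like epithelium, and HT29-MTX, a colon adenocarcinoma line that had been treated with methotrexate and makes mucus. Caco-2 made up the larger part. The cells were grown on Transwell inserts until they were post-confluent and polarised, and the top compartment then received multi-walled carbon nanotubes (MWCNT) or titanium dioxide nanobelts (TiO2-NB), at a dose of 10 or of 100 µg/ml. Exposure lasted 1 h or 24 h. The control wells of each time had fresh medium only. Both lines are tumour lines and the flasks had been pooled before seeding, so the 3 arrays in each of the 10 groups are separate samples of 1 cell stock, and p-values measure the spread between these samples. All groups share the lines, their mixing, the culture time and the medium.

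A replication origin is licensed in G1, when the origin recognition complex and CDC6 load the MCM2-7 ring onto DNA. In S phase CDC45 and the GINS complex turn that ring into the active helicase, RPA coats the single strands, primase starts each new strand, and the PCNA clamp, loaded by replication factor C, holds the polymerases on the template. Cells of the intestinal epithelium transcribe these genes mostly while they divide in the crypt, and lower them as they differentiate; many of the genes are targets of E2F transcription factors.

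Values are log2 levels of probe sets, so a difference of 1 is a doubling, and ± is limma's standard error with n = 3 arrays per group unless an SD is named. Array medians over all probe sets lay between 6.45 and 6.49. The probe set for 18S ribosomal RNA read, by group means, 0.80 to 1.51 above the control in the 4 groups exposed for 1 h. At 24 h the group means were 0.06 to 0.40 above it. Single arrays differed: TiO2-NB 10 µg/ml 1 h replicate 3 read 8.50, below the 1 h control arrays at 8.61 to 8.81. Enterocyte markers, 15 of 15 measured, averaged 10.28 to 10.37 on the 1 h control arrays and 10.30 to 10.39 on the exposed ones, and 10.35 to 10.40 against 10.30 to 10.44 at 24 h. Goblet cell markers, 14 of 15 measured, averaged 8.98 to 9.06 against 8.96 to 9.07 at 1 h. At 24 h they averaged 9.034 to 9.105 on the control arrays. The exposed arrays read 9.003 to 9.024 after MWCNT at 10 µg/ml, wholly below the control, and 9.103 to 9.148 after TiO2-NB at 100 µg/ml, mostly above it. The remaining exposed groups overlapped the control. Marker means for cell types the culture should lack were 6.10 to 6.31 for fibroblasts and 5.96 to 6.21 for leukocytes over all 30 arrays. The leukocyte mean takes in LYZ, at a level of 11.31, while the other measured markers of that list lay between 3.63 and 6.90. In RNA of the mixed culture, fewer cells of a line and less RNA per cell cannot be told apart.

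Signals of the 41 genes covered a wide span of the array. The highest were those of TYMS, the thymidylate synthase, at 11.10, of the clamp PCNA at 10.94 and of RPA1 at 10.89. The lowest were those of ORC1, the largest subunit of the origin recognition complex, at 5.58, of the primase subunit PRIM2 at 6.41 and of POLA1, the catalytic subunit of polymerase alpha, at 6.45. These are probe set signals and do not order the genes by transcript amount. Only 4 of the 62 probe sets were among the dimmest on the array, by a split of all probe sets into 3 equal parts. Over all 30 arrays the total range of a gene ran from 0.27 for RPA2 to 0.91 for PRIM2, so the whole experiment moved none of them by as much as a doubling.

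**Figure D1:**
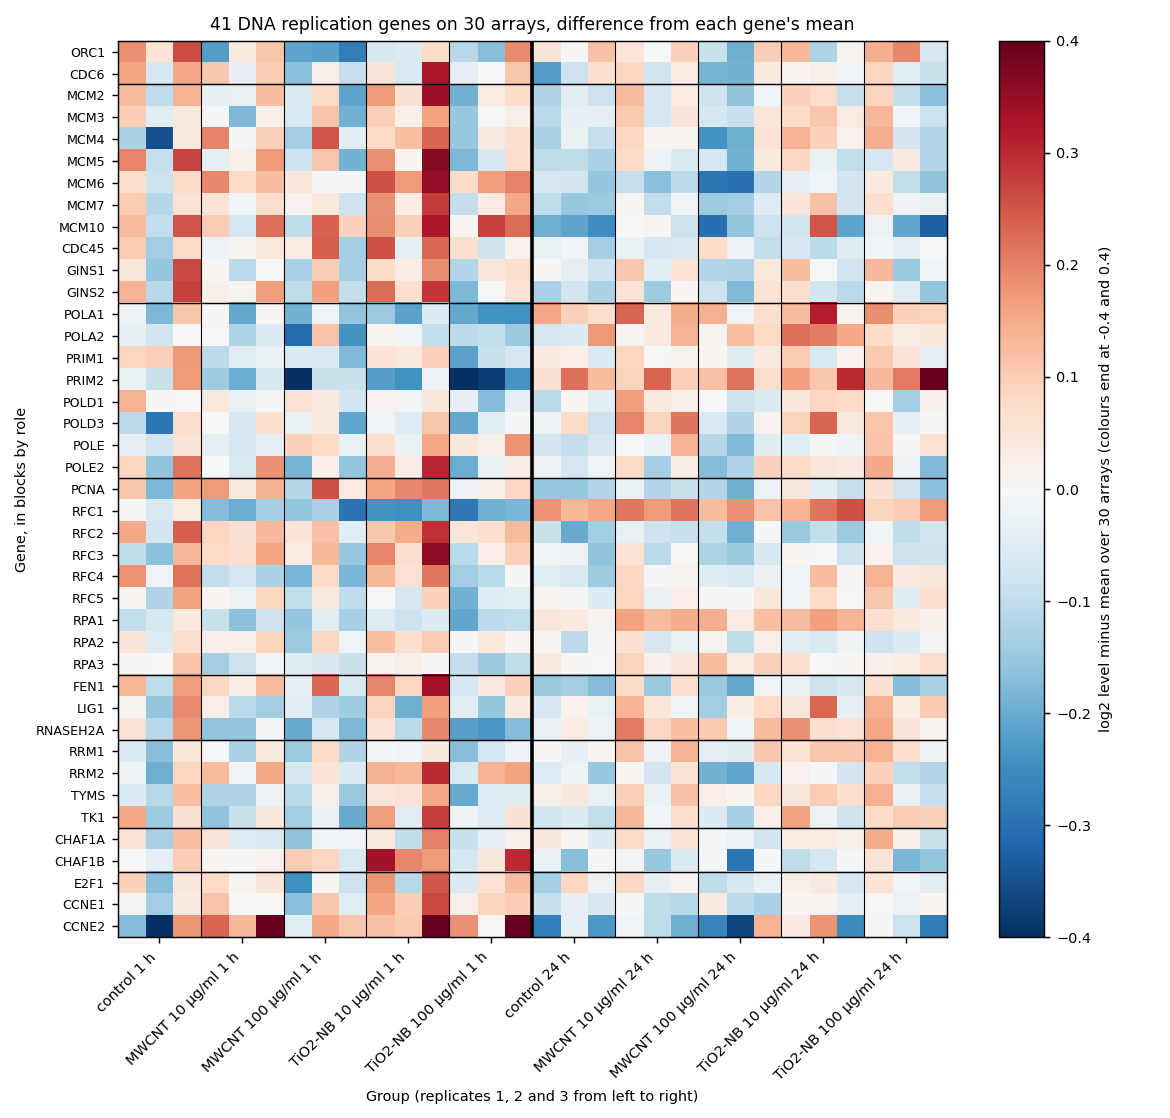
Log2 level of each of the 41 genes (vertical, in blocks by role) on each of the 30 arrays (horizontal, 3 replicates per group), as the difference from the gene's mean over all arrays, in colours that end at -0.4 and 0.4. Whole columns share a colour within a group, as in control 1 h replicate 2, where 39 of the 41 genes were the lowest of the 3 control arrays.

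The replication genes moved together from array to array within groups of the same treatment. In the 1 h control, replicate 2 was the lowest of the 3 arrays for 39 of the 41 genes and replicate 3 the highest for 34, while of all probe sets 31.9% were lowest on replicate 2 and 34.0% highest on replicate 3. After TiO2-NB at 10 µg/ml for 1 h, replicate 3 was the highest for 35 genes (36.4% of all probe sets). After MWCNT at 100 µg/ml for 1 h, replicate 2 was the highest for 33 (32.8%). The same was seen at 24 h after MWCNT at 10 µg/ml. Replicate 1 was highest there for 31 genes (38.2% of all probe sets) and replicate 2 lowest for 32 (38.5%). The 24 h control was the group in which the genes were spread most evenly over the 3 arrays. At 1 h replicate 3 was also highest for 29 genes after MWCNT at 10 µg/ml (33.2%) and 34 after TiO2-NB at 100 µg/ml (31.5%). Replicate 2 was lowest for 29 and 33 genes after MWCNT and TiO2-NB at 10 µg/ml (30.6% and 34.6%). The order differed after MWCNT at 100 µg/ml for 1 h, and the highest replicate varied among the groups at 24 h. Whether replicate numbers mark a shared handling was not tested.

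Expressed as the median over the 41 genes of the difference from each gene's mean, the 1 h control arrays read 0.06, -0.11 and 0.12. The 1 h arrays read 0.01, -0.03 and 0.05 after MWCNT at 10 µg/ml and -0.10, 0.06 and -0.10 after MWCNT at 100 µg/ml. They read 0.09, 0.02 and 0.20 after TiO2-NB at 10 µg/ml and -0.10, -0.03 and 0.06 after TiO2-NB at 100 µg/ml. All 4 exposed groups therefore overlapped the control arrays, whose own span was the widest of the 1 h groups. The SD of these medians at 1 h was 0.09 for single arrays within groups and 0.06 for the 5 group means. A group mean varies less than a single array. These SDs therefore cannot be set directly against each other, and no conclusion on group differences was drawn from them. At 24 h the control arrays read -0.050, -0.033 and -0.059. The exposed arrays read 0.083, -0.027 and 0.030 after MWCNT at 10 µg/ml and -0.067, -0.121 and 0.038 after MWCNT at 100 µg/ml. They read 0.047, 0.036 and -0.015 after TiO2-NB at 10 µg/ml and 0.087, -0.024 and -0.032 after TiO2-NB at 100 µg/ml. The lowest array after TiO2-NB at 100 µg/ml thus lay beside the highest control array. The SD at 24 h was 0.06 for single arrays within groups and 0.04 for the group means, with the same limit.

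**Figure D2:**
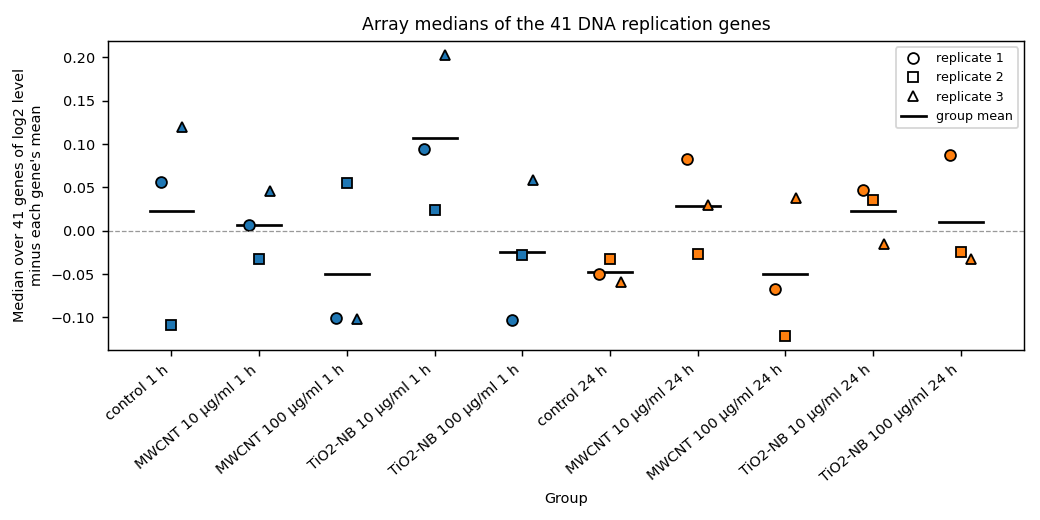
Median over the 41 genes of the log2 level minus each gene's mean (vertical) for each array, by group (horizontal), with a marker shape per replicate and a line at the group mean. The 1 h control spans -0.11 to 0.12, which takes in the group mean of every exposed group at 1 h, while the 3 control arrays at 24 h lie between -0.06 and -0.03.

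A count by gene gives the same picture without a fit. For each gene and each of the 10 groups it was asked whether the highest array, and whether the lowest array, was the one picked by the median of the other members, which makes 20 possible matches. The members had a median of 14 matches, with a range of 7 to 18, and the other 11922 genes had a median of 6. At 15 or more stood 20 of the 41 members (48.8%) and 109 of the other genes (0.91%). FEN1, the flap endonuclease of Okazaki fragment processing, GINS2, RNASEH2A, which removes ribonucleotides from DNA, and the ribonucleotide reductase subunit RRM2 each had 18. CDC45 had 7, and the polymerase subunits POLA2 and POLD1 had 8. These genes share their arrays and are not independent points, so the count is a description.

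Other groups of genes followed the members to differing degrees. Of the 10 groups, the array with the highest median for nucleotide supply genes was also the members' highest in 9, and the lowest was the same in 10. For replication factors outside the 41 the matches were 8 and 6. For mitotic genes the matches were 6 and 7, for E2F, RB and G1/S regulators 6 and 5, for enterocyte markers 2 and 0, and for goblet cell markers 2 and 3. The 18S level had 3 and 3. What lay behind these shared movements was not tested.

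At 1 h, few replication genes passed the test against the control, and about as large a share of all probe sets did. After MWCNT at 10 µg/ml 4 of the 62 member probe sets were called (6.45%, against 6.46% of all probe sets), 1 up and 3 down (2.56% and 3.9% of all). After MWCNT at 100 µg/ml 5 were called (8.06% against 7.78%), all down (4.27% of all). TiO2-NB at 10 µg/ml gave 5 calls (8.06% against 7.84%), 4 up and 1 down (2.61% and 5.24% of all). TiO2-NB at 100 µg/ml gave 7 (11.3% against 8.43%), all down (5.78% of all). At an unadjusted p under 0.05 stood 11, 11, 16 and 17 member probe sets in the same order (17.7%, 17.7%, 25.8% and 27.4%, against 19.7%, 22.1%, 20.9% and 21.6% of all). Arrays of the exposed and control groups did not overlap for 8, 6, 11 and 13 members (12.9%, 9.7%, 17.7% and 21.0%, against 23.4%, 21.3%, 22.4% and 23.7%). By these last 2 measures the members' shares were below those of the whole array for both MWCNT doses, and for both TiO2-NB doses above them at the unadjusted p and below them in non-overlap. All 4 comparisons use the same 3 control arrays. The largest difference was 1.47-fold, and the genes that fell were for the most part the clamp loader subunits RFC1 and RFC4, the primase subunits and RPA1.

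The 41 genes as a whole lay on different sides of the control at 1 h. After TiO2-NB at 10 µg/ml 32 of 41 were above it, with a median difference of 0.08, against 52.1% of all probe sets and a median of 0.005. After MWCNT at 10 µg/ml 14 were above, with a median of -0.03, after MWCNT at 100 µg/ml 10, with -0.07, and after TiO2-NB at 100 µg/ml 12, with -0.05. Those medians turned on the control replicates. The TiO2-NB median at 10 µg/ml became 0.01 when control replicate 2 was left out and 0.14 when control replicate 3 was. The MWCNT median at 10 µg/ml became -0.10 and 0.03 in the same fits, a change of sign.

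The counts of calls also depended on single arrays. For MWCNT at 10 µg/ml 1 member was called without MWCNT replicate 1 or 2, and 2 without control replicate 1 or 3. The MWCNT count at 100 µg/ml dropped to 1 when MWCNT replicate 3 was left out, and to 3 without MWCNT replicate 1, control replicate 1 or control replicate 3. For TiO2-NB at 10 µg/ml it was 1 without control replicate 2 or TiO2-NB replicate 3, 3 without TiO2-NB replicate 1 and 8 without control replicate 3. For TiO2-NB at 100 µg/ml it was 4 without TiO2-NB replicate 1 and 3 without replicate 2. With the 18S level as a covariate the 4 counts, in the same order, were 1, 0, 3 and 6, and when limma was fitted to the 6 arrays of a comparison alone, with fewer residual degrees of freedom, it called 0 members in each.

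**Figure D3:**
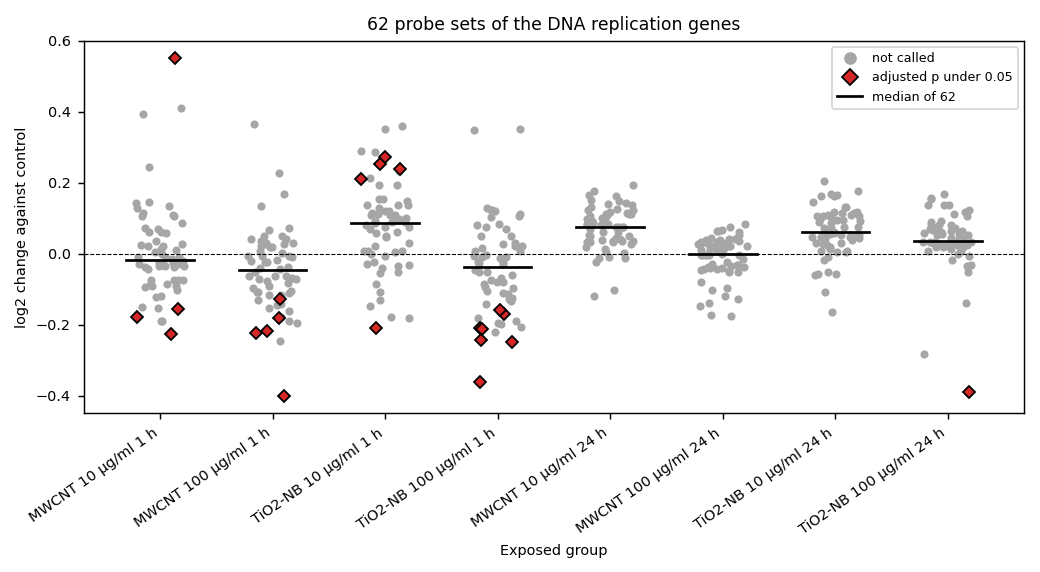
Log2 change against the control of the same time (vertical) for the 62 member probe sets in the 8 comparisons (horizontal), with the called ones as red diamonds and a line at the median of the 62. The calls lie at 1 h, with 4, 5, 5 and 7 of them, and at 24 h after TiO2-NB at 100 µg/ml, with 1.

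RFC1, PRIM1, RFC4 and RPA1 had the most calls against the control, with 5, 3, 2 and 2. RFC1 is the large subunit of the clamp loader, which opens PCNA and closes it around DNA; RFC4 is 1 of its small subunits. PRIM1 is the catalytic subunit of primase, and RPA1 is the large subunit of the protein that coats single-stranded DNA. Their promoter windows are printed by that count of calls, which for RFC1 takes in 2 probe sets. Also printed is that of MCM6, a ring subunit of the helicase. It was the called gene that rose after TiO2-NB at 10 µg/ml with the smallest p, and was added after its values were seen. Sequences are from RefSeq (GRCh38.p14), run 5′ to 3′ on the gene's strand from 250 bases before to 50 after the annotated start, and carry capitals at matches to an E2F motif (TTTCCCGC, TTTCGCGC, TTTGCCGC or TTTGGCGC), to CCAAT, or to a CHR motif (TTTGAA or TTCGAA), each searched on both strands.
RFC1 (chr4:39366313-39366612, minus strand): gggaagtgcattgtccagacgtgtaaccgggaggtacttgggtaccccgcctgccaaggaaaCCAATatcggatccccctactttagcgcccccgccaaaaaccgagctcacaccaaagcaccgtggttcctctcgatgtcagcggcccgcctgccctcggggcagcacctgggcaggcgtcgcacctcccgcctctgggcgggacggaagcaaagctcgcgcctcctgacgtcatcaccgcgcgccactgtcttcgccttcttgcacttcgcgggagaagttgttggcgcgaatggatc
PRIM1 (chr12:56752274-56752573, minus strand): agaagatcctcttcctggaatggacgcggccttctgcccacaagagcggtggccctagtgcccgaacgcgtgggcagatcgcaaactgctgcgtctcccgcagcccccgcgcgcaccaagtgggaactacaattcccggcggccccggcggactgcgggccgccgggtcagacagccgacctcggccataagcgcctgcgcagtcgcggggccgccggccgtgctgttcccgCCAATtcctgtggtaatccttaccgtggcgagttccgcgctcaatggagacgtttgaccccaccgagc
RFC4 (chr3:186806433-186806732, minus strand): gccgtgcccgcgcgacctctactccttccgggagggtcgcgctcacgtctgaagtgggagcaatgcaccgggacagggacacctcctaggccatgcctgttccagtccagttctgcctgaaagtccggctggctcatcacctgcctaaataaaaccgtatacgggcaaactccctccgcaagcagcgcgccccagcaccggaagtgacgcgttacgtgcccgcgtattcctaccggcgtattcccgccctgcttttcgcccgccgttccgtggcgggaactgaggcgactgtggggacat
RPA1 (chr17:1829755-1830054, plus strand): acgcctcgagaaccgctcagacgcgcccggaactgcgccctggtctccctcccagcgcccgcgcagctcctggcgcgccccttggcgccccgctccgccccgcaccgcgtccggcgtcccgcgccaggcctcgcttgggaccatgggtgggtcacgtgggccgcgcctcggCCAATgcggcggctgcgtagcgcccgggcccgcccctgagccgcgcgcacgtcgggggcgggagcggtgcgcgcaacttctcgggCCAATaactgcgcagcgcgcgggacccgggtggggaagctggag
MCM6 (chr2:135876394-135876693, minus strand): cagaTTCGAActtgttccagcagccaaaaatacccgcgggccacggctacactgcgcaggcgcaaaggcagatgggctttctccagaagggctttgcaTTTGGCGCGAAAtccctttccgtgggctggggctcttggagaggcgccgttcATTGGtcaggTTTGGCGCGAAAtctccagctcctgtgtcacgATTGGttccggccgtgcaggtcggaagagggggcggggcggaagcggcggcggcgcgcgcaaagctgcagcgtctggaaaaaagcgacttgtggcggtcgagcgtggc

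RFC1, PRIM1 and RPA1 held no E2F match in these windows and 1, 1 and 2 CCAAT matches, and RFC4 held none of the 3 motifs. The MCM6 window held 4 E2F matches, which overlap in pairs since TTTGGCGC and GCGCGAAA share bases at 2 places, together with 2 CCAAT matches and 1 CHR match. RefSeq windows were matched for 35 of the 41 genes, 44 windows in all. An E2F match was in 36.4% of them, against 3.31% of all 35116 windows of the same length, and in 16 of the 35 genes. CCAAT was in 61.4% against 34.61%, and CHR in 4.5% against 16.35%. A match describes letters and not a bound site.

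Among the licensing factors, ORC1 fell after MWCNT at 100 µg/ml. It read 5.76, 5.63 and 5.84 on the 1 h control arrays and 5.37, 5.36 and 5.30 on the exposed arrays, which did not overlap. The difference was -0.40 ± 0.10 (adjusted p = 0.00942), a 1.32-fold lower level, and it stayed called without each of the 6 arrays in turn. It was not called in limma with the 18S level as a covariate or with the compared groups alone (adjusted p up to 0.319). The other exposed groups read 5.35 to 5.69 after MWCNT at 10 µg/ml, 5.51 to 5.65 after TiO2-NB at 10 µg/ml and 5.41 to 5.76 after TiO2-NB at 100 µg/ml, and were not called. CDC6, the loader that acts with the origin recognition complex, was not called in any of the 8 comparisons with control, with differences of -0.16 to 0.09.

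The 10 helicase genes comprise MCM2 to MCM7, MCM10, CDC45, GINS1 and GINS2. After TiO2-NB at 10 µg/ml for 1 h all 10 lay above the control, with a median of 0.12, but only MCM6 passed the test. MCM6 read 10.59, 10.44 and 10.60 in the control, 10.77, 10.69 and 10.88 after TiO2-NB at 10 µg/ml, and 10.60, 10.69 and 10.72 after TiO2-NB at 100 µg/ml. The arrays at 10 µg/ml all stood above the control arrays, by 0.24 ± 0.06 (adjusted p = 0.0128). The call was lost without control replicate 2 or TiO2-NB replicate 3, with an adjusted p of up to 0.0967. MCM2 differed by 0.14 and MCM4 by 0.29 in the same comparison without passing. After MWCNT at 10 and 100 µg/ml and TiO2-NB at 100 µg/ml, 3, 2 and 4 of the 10 genes lay above the control, none of them called.

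Of the 8 polymerase and primase genes only the primase subunits were called. PRIM1 read 9.08, 9.09 and 9.17 in the 1 h control, 8.89, 8.95 and 8.97 after MWCNT at 10 µg/ml, and 8.94, 8.94 and 8.82 after MWCNT at 100 µg/ml. It read 8.78, 8.90 and 8.93 after TiO2-NB at 100 µg/ml and 9.05, 9.04 and 9.09 after TiO2-NB at 10 µg/ml. The first 3 exposed groups lay wholly below the control, and the last overlapped it and was not called (-0.06). PRIM1 fell by 0.18 ± 0.05 (adjusted p = 0.0338), 0.22 ± 0.05 (0.00863) and 0.24 ± 0.05 (0.00289) in those 3 groups. The call for TiO2-NB at 100 µg/ml held without each array. That for MWCNT at 100 µg/ml was lost without MWCNT replicate 3 (adjusted p = 0.0613), and that for MWCNT at 10 µg/ml without any array but control replicate 1 (up to 0.154).

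PRIM2, the regulatory subunit of primase, fell after TiO2-NB at 100 µg/ml. Its 1 h control arrays read 6.38, 6.32 and 6.58 and the exposed arrays 6.00, 6.03 and 6.17, with no overlap. The difference was -0.36 ± 0.10 (adjusted p = 0.0188), a 1.28-fold lower level, and the call was lost without control replicate 3, TiO2-NB replicate 1 or TiO2-NB replicate 2 (up to 0.126). In the other 3 groups at 1 h PRIM2 differed by -0.15, -0.25 and -0.18 and was not called. POLA1, POLA2, POLD1, POLD3, POLE and POLE2 had no call in the 4 comparisons at 1 h, where POLA1 ranged from -0.20 to -0.04 and POLD3 from 0.02 to 0.12.

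**Figure D4:**
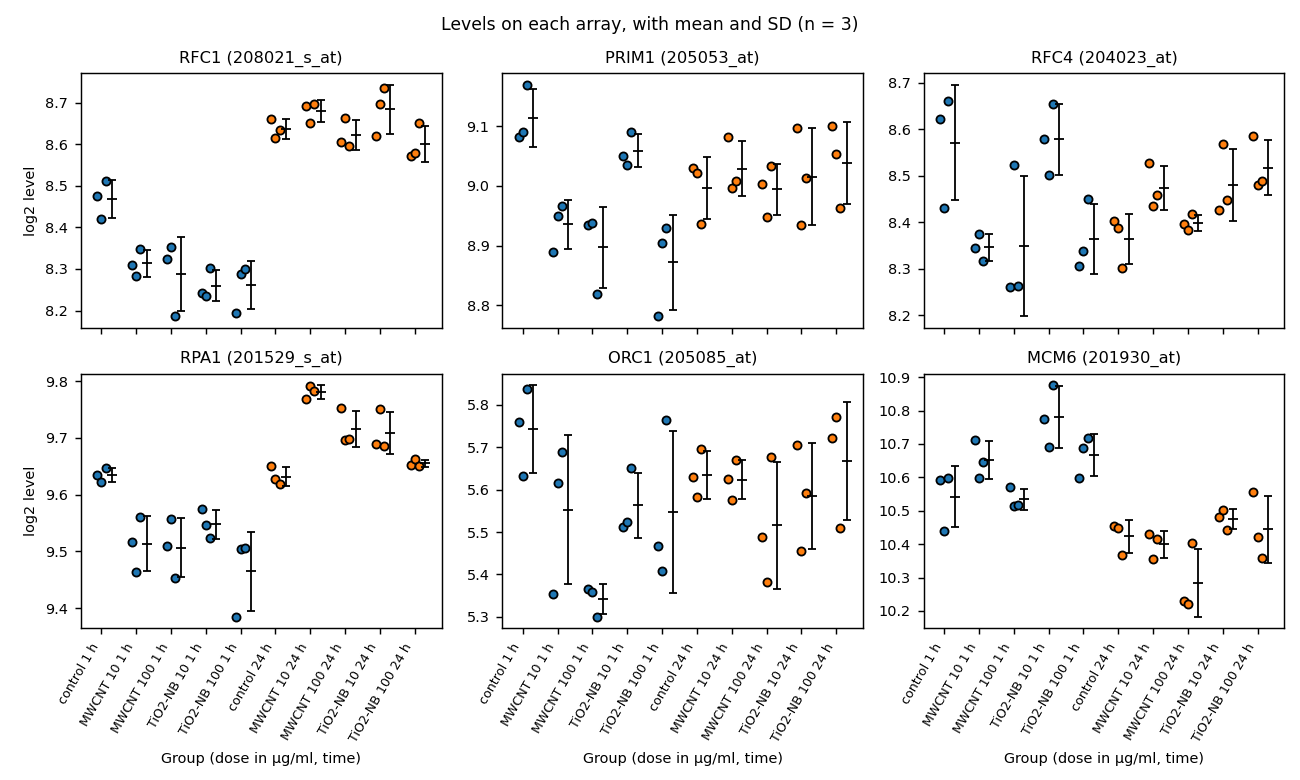
Log2 level (vertical) of 6 called probe sets on each array, by group (horizontal, dose in µg/ml and time), with the group mean and SD over 3 arrays. The exposed 1 h arrays of RFC1 lie between 8.19 and 8.35, below the control arrays at 8.42 to 8.51, and all 24 h arrays lie between 8.57 and 8.74.

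RFC1 was the gene with the most uniform difference at 1 h. Its probe set 208021_s_at read 8.47, 8.42 and 8.51 in the control, 8.31, 8.28 and 8.35 after MWCNT at 10 µg/ml, and 8.32, 8.35 and 8.19 after MWCNT at 100 µg/ml. It read 8.24, 8.23 and 8.30 after TiO2-NB at 10 µg/ml and 8.20, 8.29 and 8.30 after TiO2-NB at 100 µg/ml. All 12 exposed arrays thus lay below the 3 control arrays. RFC1 fell by 0.16 ± 0.04 (adjusted p = 0.0357), 0.18 ± 0.04 (0.0118), 0.21 ± 0.04 (0.00359) and 0.21 ± 0.04 (0.00355). Both TiO2-NB calls held without each array. The call for MWCNT at 100 µg/ml was lost without control replicate 3 or MWCNT replicate 3 (up to 0.097), and that for MWCNT at 10 µg/ml without any array but control replicate 2 (up to 0.126).

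A second RFC1 probe set, 209085_x_at, read 8.19, 8.29 and 8.25 in the control and 7.96, 8.01 and 8.12 after TiO2-NB at 100 µg/ml, a difference of -0.21 ± 0.06 (adjusted p = 0.019). It had the same sign as the first in 7 of the 8 comparisons with control, and its call was lost without control replicate 2, control replicate 3, TiO2-NB replicate 1 or TiO2-NB replicate 2 (up to 0.108). The remaining RFC1 probe set, 208133_at, is dim, with a mean of 3.31, and shared the sign of the first in 4 of 8.

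RFC4 read 8.62, 8.43 and 8.66 in the 1 h control, 8.35, 8.38 and 8.32 after MWCNT at 10 µg/ml, and 8.26, 8.52 and 8.26 after MWCNT at 100 µg/ml. The first exposed group lay below all control arrays and the second overlapped them. RFC4 fell by 0.23 ± 0.07 (adjusted p = 0.0404) and 0.22 ± 0.07 (0.0381). Neither call was firm: the first was lost without any array but control replicate 2 (up to 0.166), and the second without control replicate 1 or 3 or MWCNT replicate 1 or 3 (up to 0.17). With the replicate numbers as a block the adjusted p was 0.0541 and 0.0507. After TiO2-NB at 100 µg/ml the arrays read 8.31, 8.34 and 8.45 and the difference of -0.21 did not pass (0.0519), while at 10 µg/ml they read 8.58, 8.50 and 8.65.

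Calls upward among the clamp loader subunits were limited to RFC3 in 1 group and 1 probe set of RFC5 in another. Of the 9 clamp, loader and RPA genes 4, 2, 5 and 1 lay above the control in the 4 groups at 1 h. RFC3 read 7.98, 7.92 and 8.21 in the control and 8.28, 8.15 and 8.44 after TiO2-NB at 10 µg/ml, so that the groups overlapped. RFC3 rose by 0.25 ± 0.08, at an adjusted p of 0.0498 that moved to 0.0593 with the replicate block and to up to 0.254 without control replicate 1 or 2 or TiO2-NB replicate 1 or 3. RFC5 was called through 1 of its 3 probe sets only, 213734_at, which read 8.02, 8.04 and 8.34 in the control and 8.53, 8.73 and 8.80 after MWCNT at 10 µg/ml. That is 0.55 ± 0.12 higher (adjusted p = 0.00698, called without each array), but the gene's brightest probe set, 203209_at, read 8.64, 8.51 and 8.79 against 8.64, 8.61 and 8.71. The clamp PCNA itself differed by 0.09, 0.03, 0.16 and -0.004 in the 4 groups and was not called, and RFC2 was not called either.

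RPA1 was lower in all 4 groups at 1 h on both of its probe sets. Probe set 201529_s_at read 9.63, 9.62 and 9.65 in the control, 9.51, 9.56 and 9.45 after MWCNT at 100 µg/ml, and 9.38, 9.51 and 9.51 after TiO2-NB at 100 µg/ml. It fell by 0.13 ± 0.04 (adjusted p = 0.037) and 0.17 ± 0.04 (0.00502), in each case with no overlap. The TiO2-NB call held without each array, and the MWCNT call was lost without any array but MWCNT replicate 2 (up to 0.173). The brighter probe set, 201528_at, differed by -0.07 and -0.10 in these groups and was not called. RPA3, the smallest subunit, read 10.65, 10.64 and 10.76 in the control and 10.54, 10.49 and 10.54 after TiO2-NB at 100 µg/ml, without overlap, and fell by 0.16 ± 0.04 (adjusted p = 0.0109). That call was lost without control replicate 3 or TiO2-NB replicate 2 (up to 0.0877). The middle subunit, RPA2, differed by -0.05 to 0.08 in the 4 groups, none called.

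The lagging strand genes are FEN1, the DNA ligase LIG1 and RNASEH2A. RNASEH2A read 8.59, 8.42 and 8.71 in the 1 h control and 8.31, 8.30 and 8.36 after TiO2-NB at 100 µg/ml, all below the control. It fell by 0.25 ± 0.07 (adjusted p = 0.0299), a call lost without control replicate 1 or 3 or TiO2-NB replicate 1 or 2 (up to 0.193). LIG1 ranged from -0.12 to 0.005 and FEN1 from -0.05 to 0.14 over the 4 groups at 1 h, with no call.

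The 4 genes of deoxynucleotide supply and the 2 of chromatin assembly had no call at 1 h. TYMS differed by -0.07, -0.06, 0.10 and -0.09 in the order MWCNT 10 and 100, TiO2-NB 10 and 100 µg/ml. TK1, the thymidine kinase of S phase cells, differed by -0.09, -0.14, 0.11 and -0.025. CHAF1B, a subunit of the chromatin assembly factor that places histones on new DNA, differed by -0.01, 0.02, 0.21 and 0.07. In each of these the highest value was that of TiO2-NB at 10 µg/ml.

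The G1/S regulators had calls after TiO2-NB at 10 µg/ml and none in the other 3 groups at 1 h, but no member was called between TiO2-NB at 10 µg/ml and either TiO2-NB at 100 µg/ml or MWCNT at 10 µg/ml. CCNE1, a cyclin E that drives entry into S phase, read 7.94, 7.81 and 7.98 in the control and 8.10, 8.04 and 8.21 in the exposed group, without overlap. It rose by 0.21 ± 0.06 (adjusted p = 0.0325), and the call was lost without control replicate 2 or TiO2-NB replicate 1 or 3 (up to 0.182). E2F1, a transcription factor of S phase genes, rose on the dimmer of its 2 probe sets. That probe set, 2028_s_at, read 6.48, 6.20 and 6.29 against 6.51, 6.53 and 6.74, a difference of 0.27 ± 0.07 (adjusted p = 0.014), lost without control replicate 2 or 3 or TiO2-NB replicate 3 (up to 0.111). The brighter probe set differed by 0.12 and was not called. CCNE2, the second cyclin E, lay 0.41, 0.23, 0.36 and 0.35 above the control in the 4 groups and was called in none; its smallest adjusted p was 0.0985, for MWCNT at 10 µg/ml.

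The F-test over the 5 groups at 1 h called 8 member probe sets (12.9%, against 8.52% of all probe sets). They were those of PRIM1 (adjusted p = 0.00606), RFC1 208021_s_at (0.0109), RFC4 (0.0182), MCM6 (0.031), RPA1 201529_s_at (0.0344), RPA3 (0.0349), RFC5 213734_at (0.0434) and RNASEH2A (0.0474). With the 18S level as a covariate 2 were called. The count was 3 without control replicate 3, 4 without TiO2-NB 10 µg/ml replicate 1, and 5 without control replicate 1, control replicate 2, MWCNT 100 µg/ml replicate 3 or TiO2-NB 100 µg/ml replicate 2.

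At 24 h the replication genes were nearly all slightly above the control in 3 of the 4 exposed groups, and no gene passed on the probe set that represents it. Above the control lay 37 of 41 genes after MWCNT at 10 µg/ml, with a median difference of 0.075, 38 after TiO2-NB at 10 µg/ml, with 0.07, and 37 after TiO2-NB at 100 µg/ml, with 0.04. After MWCNT at 100 µg/ml 21 lay above, with 0.01. Of all probe sets 50.2 to 55.3% lay above the control in these comparisons, with medians of 0.00 to 0.01. All 4 share the 3 control arrays of 24 h, so the counts are not 4 separate observations. The medians ranged from 0.04 to 0.09, from 0.06 to 0.10, and from 0.004 (without TiO2-NB replicate 1) to 0.08 in those 3 groups when 1 array was left out, and from -0.02 to 0.03 after MWCNT at 100 µg/ml.

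Counts of calls at 24 h were 0 after MWCNT at 10 µg/ml (0.0045% of all probe sets), 0 after MWCNT at 100 µg/ml (0.009%), 0 after TiO2-NB at 10 µg/ml (0.0585%) and 1 after TiO2-NB at 100 µg/ml (1.61%, against 3.53%) in limma. At an unadjusted p under 0.05 they were 6, 2, 5 and 7 of 62, or 9.68%, 3.23%, 8.06% and 11.3%, against 4.29%, 5.56%, 7.59% and 13% of all probe sets. The arrays of the exposed and control groups did not overlap for 23 member probe sets after MWCNT at 10 µg/ml (37.1%, against 12.2% of all), for 4 after MWCNT at 100 µg/ml (6.5% against 14.2%), for 23 after TiO2-NB at 10 µg/ml (37.1% against 14.2%) and for 11 after TiO2-NB at 100 µg/ml (17.7% against 22.5%). The 3 control arrays at 24 h lay close together for these genes. The median width to either side of a 95% confidence interval for a member's difference was 0.16, so differences of this size are not resolved by 3 arrays a group.

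RPA1 was among the closest to a call at 24 h after MWCNT at 10 µg/ml. Its probe set 201529_s_at read 9.65, 9.63 and 9.62 in the control and 9.77, 9.79 and 9.78 in the exposed group, without overlap, a difference of 0.15 ± 0.04 that did not pass (adjusted p = 0.69). POLD1, the catalytic subunit of polymerase delta, differed by 0.12 there and did not pass. After MWCNT at 100 µg/ml the smallest p among the members belonged to MCM6, which read 10.45, 10.45 and 10.37 in the control and 10.23, 10.22 and 10.40 in the exposed group. Those groups overlapped, and the difference of -0.14 ± 0.06 did not pass (adjusted p = 0.892), nor did that of RPA1 201529_s_at, 0.08 ± 0.04. After TiO2-NB at 10 µg/ml RPA1 201528_at read 10.94, 10.93 and 10.90 in the control and 11.01, 11.05 and 11.02 in the exposed group (0.11 ± 0.04, adjusted p = 0.543). MCM7, another ring subunit, read 8.91, 8.87 and 8.87 against 9.07, 9.13 and 8.94 (0.16 ± 0.07, adjusted p = 0.582). Both pairs of groups were free of overlap, and neither difference passed.

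The single call at 24 h was on CHAF1A, the large subunit of chromatin assembly factor 1, after TiO2-NB at 100 µg/ml. Its probe set 203975_s_at read 6.11, 6.12 and 6.13 in the control and 5.82, 5.93 and 5.45 in the exposed group, without overlap, and fell by 0.39 ± 0.09 (adjusted p = 0.0141). The call was lost without control replicate 2 or 3 or TiO2-NB replicate 3 (up to 0.199), and without TiO2-NB replicate 1 there were 2 member calls in this comparison. The gene's other 2 probe sets differed by 0.03 each and were not called, so the fall was seen on 1 of 3 probe sets. POLE, the catalytic subunit of polymerase epsilon, was next, with 6.98, 6.96 and 6.99 against 7.17, 7.05 and 7.12, a difference of 0.14 ± 0.05 that did not pass (adjusted p = 0.23). In the F-test over the 5 groups at 24 h limma called 0 member probe sets (3.14% of all), with 7 of 62 at an unadjusted p under 0.05 (11.3%, against 11.7% of all). It called 1 without MWCNT 100 µg/ml replicate 3 or TiO2-NB 100 µg/ml replicate 2.

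Comparing doses, most members had lower group means at 100 than at 10 µg/ml of TiO2-NB after 1 h, and none passed the test. Of the 41 genes 39 were lower at the higher dose, with a median of -0.11, against a median of -0.004 over all probe sets. limma called 0 members and 0% of all probe sets. At an unadjusted p under 0.05 stood 20 of the 62 member probe sets (32.3%, against 6.42% of all), and 21 had arrays that did not overlap (33.9% against 11.4%). The genes moved together from array to array, so counts of genes here and in the comparisons below are not separate observations. The array medians over the 41 genes overlapped, at 0.09, 0.02 and 0.20 for 10 µg/ml and -0.10, -0.03 and 0.06 for 100 µg/ml. The smallest p values were those of PRIM1, at -0.19 ± 0.05 (adjusted p = 0.677), of RNASEH2A, at -0.25 ± 0.07 (0.688), and of RFC4, at -0.21 ± 0.07 (0.688). The median difference was -0.08 to -0.16 when 1 array was left out. It was nearest to 0, at -0.079, without TiO2-NB 10 µg/ml replicate 3, the array on which 35 genes were the highest of their group. Without TiO2-NB 100 µg/ml replicate 1, on which 30 genes were the lowest of their group, it was -0.080.

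The other dose comparisons gave 0 member calls in limma. MWCNT at 1 h had 9 of 41 genes above 0 at 100 against 10 µg/ml, with a median of -0.05, 0% of all probe sets called, and 3 members at an unadjusted p under 0.05 (4.84%, against 6.83%). MWCNT at 24 h had 4 of 41 above 0, with a median of -0.07, 0% of all called, and 7 members at an unadjusted p under 0.05 (11.3%, against 6.65%), and 18 members did not overlap (29.0%, against 15.1%). TiO2-NB at 24 h had 13 of 41 above 0, with a median of -0.03, 1.83% of all called, and 2 members at an unadjusted p under 0.05 (3.23%, against 8.37%). Non-overlapping arrays were found for 5 members in the first of these comparisons (8.1%, against 10.7%) and for 7 in the last (11.3%, against 13.2%).

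Between the particles at the same dose and time limma likewise called 0 members. At 10 µg/ml for 1 h 36 of 41 genes were lower after MWCNT than after TiO2-NB, with a median of -0.10 and 0.0675% of all probe sets called, and 13 members had an unadjusted p under 0.05 (21%, against 13.7%). RFC4 (-0.23 ± 0.07, adjusted p = 0.151) and E2F1 2028_s_at (-0.20 ± 0.07, 0.214) came first. That median was -0.05 without TiO2-NB replicate 3 and -0.16 without TiO2-NB replicate 2. At 100 µg/ml for 1 h (0% of all called), 10 µg/ml for 24 h (0.0315%) and 100 µg/ml for 24 h (2.88%) the medians were -0.015, 0.01 and -0.05, with 3, 1 and 4 members at an unadjusted p under 0.05 (4.84%, 1.61% and 6.45%, against 9.25%, 4.88% and 12.6%). Arrays of the 2 particles did not overlap for 14 members at 10 µg/ml for 1 h (22.6%, against 18.7% of all), 4 at 100 µg/ml for 1 h (6.5%, against 12.9%), 7 at 10 µg/ml for 24 h (11.3%, against 10.2%) and 8 at 100 µg/ml for 24 h (12.9%, against 20.7%). None of these comparisons shows that the particles or doses acted alike: the widest 95% interval of a member's difference against control reached 0.30 to either side.

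Several members differed between the control wells of 1 h and 24 h, which are separate sets of 3 arrays. Here 7 member probe sets were called in the control (11.3%, against 18.1% of all probe sets), and 14 had arrays that did not overlap (22.6%, against 34.2%). RFC1 rose on both bright probe sets, by 0.17 ± 0.04 on 208021_s_at (adjusted p = 0.00917), from 8.47, 8.42 and 8.51 to 8.66, 8.62 and 8.63, and by 0.23 ± 0.06 on 209085_x_at (0.00565), from 8.19, 8.29 and 8.25 to 8.51, 8.45 and 8.47. RFC2 fell by 0.25 ± 0.06 (0.00676), from 8.54, 8.32 and 8.63 to 8.30, 8.19 and 8.25. RFC4 fell by 0.21 ± 0.07 (0.029), to 8.40, 8.39 and 8.30. The clamp loader subunits thus differed both ways between the times, RFC1 without overlap between the times and RFC2 and RFC4 without overlap as well.

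RFC5 213734_at was higher at 24 h by 0.48 ± 0.12 (adjusted p = 0.00666), at 8.51, 8.64 and 8.70. The gene's other probe sets differed by -0.16 ± 0.07 on 203210_s_at, without overlap but not called (0.092), and by -0.03 on 203209_at. MCM4 212141_at fell by 0.30 ± 0.10 (0.0386), from 8.16, 7.88 and 8.19 to 7.67, 7.84 and 7.82, and MCM7 210983_s_at by 0.18 ± 0.06 (0.0381), from 8.95, 8.80 and 8.87 to 8.64, 8.74 and 8.69. The groups of both did not overlap. Over all 41 genes 9 were above 0 and the median was -0.06, or -0.12 to 0.00 with 1 array left out. The count of calls was 13 without control 1 h replicate 2, 3 without control 1 h replicate 3, and 4 without control 1 h replicate 1 or control 24 h replicate 3. RFC1 209085_x_at and RFC5 213734_at were called in every such fit.

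The change of an effect between 1 and 24 h was tested directly. It was called for 1 member probe set after MWCNT at 10 µg/ml (1.61%, against 1.79% of all), 1 after MWCNT at 100 µg/ml (1.61%, against 2.71%), 1 after TiO2-NB at 10 µg/ml (1.61%, against 3.83%) and 6 after TiO2-NB at 100 µg/ml (9.68%, against 5.84%). For each called probe set the difference from control was below 0 at 1 h and above 0 at 24 h. None of them was called against the control at 24 h. At 1 h RPA1 201529_s_at after MWCNT at 10 µg/ml was not called either. Nor were RFC4 and RFC5 203210_s_at after TiO2-NB at 100 µg/ml at 1 h. RPA1 201529_s_at went from -0.12 to 0.15 after MWCNT at 10 µg/ml, a difference of 0.27 ± 0.05 (adjusted p = 0.00831) that was called without each of the 12 arrays. After TiO2-NB at 100 µg/ml RFC4 went from -0.21 to 0.15, by 0.36 ± 0.09 (0.0199), and PRIM1 from -0.24 to 0.04, by 0.29 ± 0.07 (0.0166).

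The TiO2-NB count at 100 µg/ml depended on the arrays. It was 0 without control 1 h replicate 3 or TiO2-NB 1 h replicate 1, 1 without control 24 h replicate 3, 2 without TiO2-NB 1 h replicate 2 or TiO2-NB 24 h replicate 3, and 3 without control 24 h replicate 2 or TiO2-NB 24 h replicate 2. The MWCNT count at 100 µg/ml dropped to 0 without control 1 h replicate 1 or 3, MWCNT 1 h replicate 3, control 24 h replicate 2 or 3, or MWCNT 24 h replicate 1, and 2 without MWCNT 1 h replicate 2. For TiO2-NB at 10 µg/ml it was 0 without control 1 h replicate 3, control 24 h replicate 2, or TiO2-NB 24 h replicate 2 or 3. For MWCNT at 10 µg/ml it was 2 without control 1 h replicate 2. Fitted to the arrays of each comparison alone, with fewer residual degrees of freedom, the 4 counts were 0, 0, 0 and 1.

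**Figure D5:**
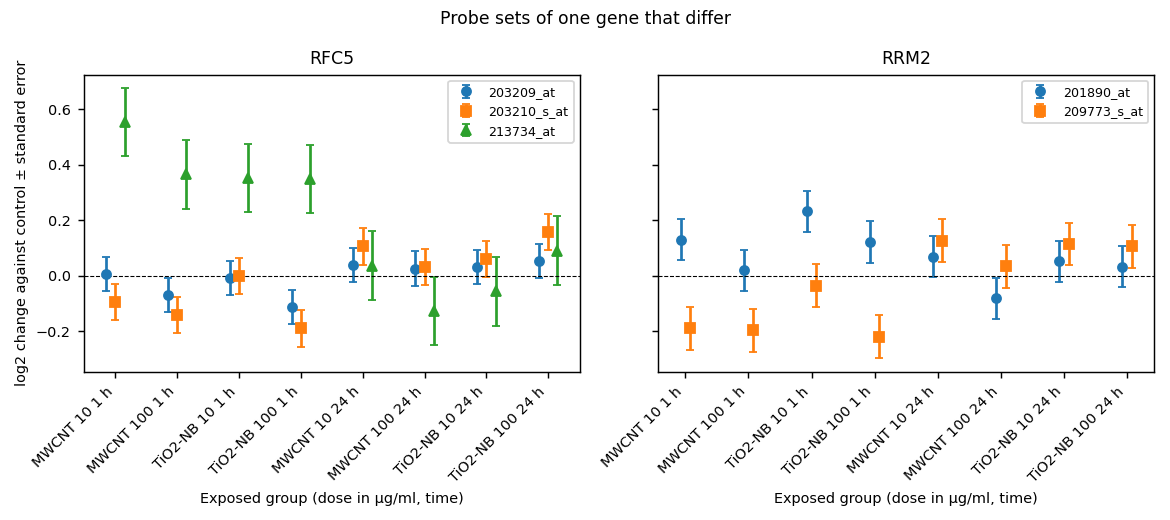
Log2 change against control with limma's standard error (vertical) in the 8 comparisons (horizontal) for RFC5 and RRM2, whose probe sets differ. RFC5 213734_at stands 0.35 to 0.55 above the control at 1 h while the gene's other 2 probe sets lie between -0.19 and 0.01. The 2 RRM2 probe sets have the same sign in 3 of the 8 comparisons.

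Several genes gave different answers on different probe sets. At 1 h RFC5 213734_at was higher by 0.55, 0.37, 0.35 and 0.35 in the 4 groups, while 203210_s_at differed by -0.09, -0.14, -0.001 and -0.19. RRM2, the small subunit of ribonucleotide reductase, differed by 0.13, 0.02, 0.23 and 0.12 on 201890_at and by -0.19, -0.20, -0.04 and -0.22 on 209773_s_at, with both probe sets bright (10.38 and 10.09) and neither called. RFC5, RRM2 and TYMS each had a pair with the same sign in 3 of the 8 comparisons with control, the TYMS pair with 1 dim probe set (5.09). The RPA1 pair and the RFC3 pair had the same sign in 8 of 8, and the MCM7 pair in 6. No probe coordinates were used here, so which transcripts each probe set reads is not given.

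Replication factors outside the 41, listed for comparison, showed calls in both directions at 1 h and none at 24 h when each gene was read on the probe set that represents it, as are the counts of all further lists. On their other probe sets there was 1 call at 24 h after TiO2-NB at 10 µg/ml and 1 at 100 µg/ml, both down. Of 36 measured of 43 listed, 2 rose and 2 fell after MWCNT at 10 µg/ml, 4 and 2 after MWCNT at 100 µg/ml, 4 and 3 after TiO2-NB at 10 µg/ml, and 4 and 5 after TiO2-NB at 100 µg/ml, with medians of 0.02, 0.02, 0.07 and -0.01. After TiO2-NB at 100 µg/ml the origin recognition subunits ORC4 (-0.27 ± 0.04, adjusted p = 0.00017) and ORC2 (-0.22 ± 0.04, 0.00089) fell, WDHD1, which links the helicase to polymerase alpha, fell (-0.48 ± 0.10, 0.00204), and RIF1, a regulator of replication timing, rose (0.50 ± 0.09, 0.000574).

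Nucleotide supply genes, 23 measured of 25, had 1 up and 1 down, 1 and 1, 1 and 2, and 1 and 3 in the same order of groups. After TiO2-NB at 100 µg/ml the purine synthesis enzyme GART fell (-0.28 ± 0.05, adjusted p = 0.00054), as did CTPS1 (-0.26 ± 0.08, 0.0373) and DHODH (-0.21 ± 0.06, 0.0403) of pyrimidine synthesis, and MTHFD2 of mitochondrial folate metabolism rose (0.25 ± 0.05, 0.00187). Of 28 measured E2F, RB and G1/S regulators of 30, 2, 2, 5 and 4 rose and 0, 0, 1 and 0 fell, and 2 other probe sets of these genes fell after MWCNT at 10 µg/ml. With TiO2-NB at 100 µg/ml these were E2F3 (0.28 ± 0.07, 0.015), E2F8 (0.27 ± 0.07, 0.0254), E2F4 (0.20 ± 0.06, 0.035) and CCND1, a cyclin D (0.19 ± 0.06, 0.049).

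Calls among mitotic genes at 1 h were mostly down. Of 30 measured, 0, 1, 0 and 0 rose and 9, 6, 3 and 6 fell, with medians of -0.14, -0.11, -0.03 and -0.09; at 24 h no gene was called on its representing probe set, 1 other probe set fell after TiO2-NB at 100 µg/ml, and the medians were 0.13, 0.02, 0.12 and 0.12. After TiO2-NB at 10 µg/ml for 1 h the mitotic median of -0.03 stood beside 0.08 for the 41 replication genes. With TiO2-NB at 100 µg/ml for 1 h KIF20A, a kinesin of cytokinesis, fell (-0.31 ± 0.06, adjusted p = 0.00234), with HMMR (-0.29 ± 0.06, 0.00373), the phosphatase CDC25C (-0.23 ± 0.06, 0.00977) and the kinase AURKA (-0.19 ± 0.05, 0.0128). Array means of the list were 8.11 to 8.26 on the 1 h control arrays and 8.03 to 8.18 on the exposed ones. Their part in the differences of the replication genes was not tested. Enterocyte markers had 1 up and 1 down after MWCNT at 100 µg/ml for 1 h and no gene called in the other 3 groups, though 1 other probe set rose after MWCNT at 10 µg/ml, and goblet cell markers had 1 up in each group and 1 down after TiO2-NB at 100 µg/ml: MUC13 rose (0.23 ± 0.05, adjusted p = 0.00279) and TFF2 fell (-0.22, 0.0164) there. No fibroblast marker was called at 1 h on its representing probe set and 1 other probe set rose after TiO2-NB at 10 µg/ml. Of the leukocyte markers LYZ, by far the brightest of that list, rose in each 1 h group (0.28 after TiO2-NB at 100 µg/ml, 0.023).

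The genes outside the 41 whose group means followed the members' median most closely over the 10 groups were ZWINT and ASF1B, with Pearson's r of 0.924 each, then PHGDH with 0.910, LHFPL6 with 0.889 and TACC3 with 0.874, out of 11922 genes compared. ASF1B is a histone chaperone that works with the chromatin assembly factor, ZWINT and TACC3 act in mitosis, and PHGDH makes serine. Their group means spanned 0.17 to 0.28. The 10 points are group means that share arrays with the members, so the r values are given as a description.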

How the data were processed

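Total RNA of 30 samples was hybridised to 1 array each. The authors deposited a table of log2 levels, 1 per probe set, made with RMA per the submitters' processing notes; its version was not given in the sources. RMA gives all arrays a like distribution, so differences are relative to the rest of the transcripts. The table holds 22277 probe sets, of which 62 control probe sets were left out and 22215 tested, 19064 with 1 gene symbol. Values were used as deposited.

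A mean per group was fitted over all 30 arrays with limma 3.58.1 in R 4.3.3 (lmFit and eBayes, 20 residual degrees of freedom plus 3.68 from the prior). P-values were two-sided and adjusted per comparison across the whole array (Benjamini-Hochberg), and an adjusted p under 0.05 was a call. Up to 6 called genes per comparison with control, or the 2 of smallest p, are given by array, and up to 4 of each further list for TiO2-NB at 100 µg/ml. The members and lists were chosen with earlier results of these data known. An array has no read depth; 3 arrays per group limit the precision. Over all probe sets the replicate numbers did not pair the arrays, though the members' highest array at 1 h was often replicate 3. Alternatives were the replicate block, a filter on dim probe sets, median centring, trend and robust eBayes, the 18S level as covariate, the compared groups alone, 1 probe set per gene, and each array left out.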

Additional observations from a re-analysis of the deposited data

Results flagged for a closer look

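The effects of exposure at 1 h and at 24 h differed, by a test of the difference itself (the interaction in limma), for 9 combinations of member probe set and treatment. RPA1 201529_s_at differed by 0.269 after MWCNT at 10 µg/ml (from -0.12 to 0.15), by 0.212 after MWCNT at 100 µg/ml (from -0.13 to 0.08, adjusted p = 0.0323) and by 0.192 after TiO2-NB at 100 µg/ml (from -0.17 to 0.02, 0.0305). RFC1 208021_s_at differed by 0.257 after TiO2-NB at 10 µg/ml (from -0.21 to 0.05, 0.0205). After TiO2-NB at 100 µg/ml PRIM1 differed by 0.285, RFC4 by 0.361, RFC5 203210_s_at by 0.346 (from -0.19 to 0.16, 0.0235), PRIM2 by 0.473 (from -0.36 to 0.11, 0.0381) and RFC1 209085_x_at by 0.269 (from -0.21 to 0.06, 0.049). None of these probe sets was called against the control at 24 h. RPA1 after MWCNT at 10 µg/ml, and RFC4 and RFC5 203210_s_at after TiO2-NB at 100 µg/ml, were not called at 1 h either. All treatments of a time share its 3 control arrays. The RPA1 difference after MWCNT at 10 µg/ml stayed called without each of the 12 arrays, and the RFC1 209085_x_at difference was lost without 10 of the 12. The 18S level was 0.80 to 1.51 above control at 1 h and 0.06 to 0.40 above it at 24 h, and with it as a covariate the counts of calls were 1, 1, 1 and 5 for MWCNT at 10 and 100 and TiO2-NB at 10 and 100 µg/ml. With the arrays of each comparison fitted alone they were 0, 0, 0 and 1, and the TiO2-NB count at 100 µg/ml was 0 without control 1 h replicate 3 or TiO2-NB 1 h replicate 1.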

How the results depend on the processing

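Of the 38 called changes of member probe sets over all comparisons, 0 reversed under any alternative. The filter, trend and robust eBayes, the replicate block, 1 probe set per gene and the compared groups alone could not reverse one. They leave each difference as it was and alter only its error, its adjustment or the probe sets tested. Calls kept were 38 with the filter on dim probe sets, 38 with trend and robust eBayes, 36 with median centring, 25 with the 18S level as a covariate, 3 with the compared groups alone, and 23 of 23 with 1 probe set per gene. The replicate block kept 35. At 1 h it gave 3, 4, 4 and 7 calls for MWCNT at 10 and 100 and TiO2-NB at 10 and 100 µg/ml. Over all probe sets, same-numbered arrays had a mean r of deviations of 0.003 over 135 pairs. By the same measure 11 of 30 arrays matched best with their own number. The 18S covariate gave 1, 0 and 3 calls for the first 3 groups at 1 h and 2 for the F-test at 1 h. The compared groups alone, which leave fewer residual degrees of freedom, gave 0 for each comparison with control at 1 h, for TiO2-NB at 100 µg/ml at 24 h, for the first 3 changes of effect with time and for the F-test at 1 h, 1 for the change of the effect of TiO2-NB at 100 µg/ml, and 2 for the controls over time. The filter gave 2 for each of the first 3 changes of effect and 1 for the F-test at 24 h, and trend and robust eBayes 2, for MWCNT at 10 and 100 µg/ml, and 1. With 1 probe set per gene there were 0 for TiO2-NB at 100 µg/ml at 24 h, 0 for the change of the MWCNT effect at 100 µg/ml and 4 for the controls over time. With 1 array left out, counts at 1 h ranged from 1 to 3, 1 to 7, 1 to 8 and 3 to 10, that for TiO2-NB at 100 µg/ml at 24 h from 0 to 2, the changes of effect from 1 to 2, 0 to 2, 0 to 1 and 0 to 8, the controls over time from 3 to 13, and the F-tests from 3 to 9 at 1 h and 0 to 1 at 24 h. The cause of these shifts was not tested. Array signal sets no depth here, and 3 arrays per group leave a median 95% interval of 0.16 to either side.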
